A study of Mus musculus with 1646 samples.

Results

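Cluster 7 of the colon cells is the fibroblast population that the submitters labelled as mucosal fibroblasts at the base of the crypt. Its members were every colon cell with the cluster label 7. Of 1646 colon cells 1307 were fibroblasts, in clusters 1, 2, 5, 6 and 7, and all but 1084 of these were members, which made cluster 7 13.5% of the cells and 17.1% of the fibroblasts. The other fibroblasts were labelled by position toward the crypt mouth, with 32.5% of all fibroblasts in cluster 5 (base to middle), 36.95% in cluster 1 (middle), 3.44% in cluster 6 (middle to apex) and 10.02% in cluster 2 (apex). All were single cells of male C57Bl6/J mice aged 10 to 20 weeks, profiled with SmartSeq2, which copies and amplifies the full-length mRNA of a sorted cell. Each cell carried a fluorescent reporter under the control of a named gene, and there were 4 such lines: Acta2GFP, Cspg4dsRED, PdgfraGFP and PdgfrbGFP. Cells that carried the endothelial protein CD31 were removed in the sort. Cells were enriched by reporters or by antibodies to PDGFRα or PDGFRβ, the labels do not say which was used for a cell, and elastase was added to the dissociation for Acta2GFP alone, so strain, dissociation and sorting gate cannot be told apart. The labels name no mouse, and methods mention combinations of strains, so each line counted as 1 sample and the spread between lines may be technical. Cluster 7 held 76 cells of PdgfrbGFP, 15 of PdgfraGFP and 5 of Cspg4dsRED, and its remaining and most numerous cells came from Acta2GFP. The lines with at least 10 cells of a cluster were its replicates, which gave 3 lines for clusters 7, 1 and 2, 4 lines for cluster 5, and 2 lines (Acta2GFP and PdgfraGFP) for cluster 6.

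The epithelium of the colonic crypt is renewed by stem cells at its base, which depend on WNT signals, amplified by R-spondins, and on low activity of bone morphogenetic proteins (BMPs). Fibroblasts under the epithelium supply many of these ligands and their secreted inhibitors, and the balance shifts along the crypt, with BMP ligands typical of the upper part. Fibroblasts that carry CD34, a sialomucin of progenitor and stromal cells, lie near the crypt bottom and in the submucosa.

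The cluster is named here by 4 marker genes: *Cd34*, *Col8a1* (a short-chain network collagen), *Wnt2* (a canonical WNT ligand) and *Fzd4* (a Frizzled receptor). They lie in GRCm38 on chromosome 1 from 194938819 to 194961279 (*Cd34*), on chromosome 16 from 57624258 to 57754737 (*Col8a1*), on chromosome 6 from 17988940 to 18030585 (*Wnt2*) and on chromosome 7 from 89404355 to 89413134 (*Fzd4*). The 200 bases before each transcription start are shown because these genes mark the same cells. They come from RefSeq (GRCm38.p6), in which 4 of 4 markers were found and whose starts can differ from the GENCODE spans above, so that most of the *Wnt2* window lies inside its span, and the windows are written 5′ to 3′ on the strand of the gene. The windows are chr1:194938621-194938820 (plus strand), chr16:57754738-57754937 (minus), chr6:18030446-18030645 (minus) and chr7:89404166-89404365 (plus). Capitals mark 3 motifs on either strand: the TATA box, searched as TATAAA, the CCAAT box, and the GC box, searched as GGGCGG. On the opposite strand the CCAAT box reads ATTGG and the GC box reads CCGCCC.
Cd34: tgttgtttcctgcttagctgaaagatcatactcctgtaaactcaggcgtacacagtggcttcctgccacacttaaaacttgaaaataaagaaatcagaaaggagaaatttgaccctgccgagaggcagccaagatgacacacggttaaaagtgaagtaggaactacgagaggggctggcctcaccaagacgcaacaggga
Col8a1: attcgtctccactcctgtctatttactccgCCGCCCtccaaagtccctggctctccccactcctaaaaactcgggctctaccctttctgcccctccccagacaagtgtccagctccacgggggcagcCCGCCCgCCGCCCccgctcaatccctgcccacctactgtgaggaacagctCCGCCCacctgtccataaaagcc
Wnt2: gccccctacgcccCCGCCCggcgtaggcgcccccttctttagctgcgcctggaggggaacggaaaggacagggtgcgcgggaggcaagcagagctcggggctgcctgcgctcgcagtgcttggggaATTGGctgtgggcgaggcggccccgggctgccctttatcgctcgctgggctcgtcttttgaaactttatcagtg
Fzd4: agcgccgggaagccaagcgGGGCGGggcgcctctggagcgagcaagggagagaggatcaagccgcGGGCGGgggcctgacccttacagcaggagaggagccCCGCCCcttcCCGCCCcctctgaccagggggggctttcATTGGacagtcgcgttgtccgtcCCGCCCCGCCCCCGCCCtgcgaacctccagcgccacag
The *Cd34* window held none of the 3 motifs, the *Col8a1* window held 4 GC boxes, and the *Wnt2* window held 1 CCAAT box and 1 GC box. In the *Fzd4* window there were 1 CCAAT box and 7 GC boxes, some of which overlap. Among 32851 mouse promoter windows of this length, 9.96% held a TATA box, 29.3% a CCAAT box and 31.05% a GC box, and a match is a description and not a bound site.

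The levels given below are counts scaled to 500000 per cell and averaged over the cells of a cluster within a line, with the mean ± SD over lines. They are not divided by gene length, so they compare cells and not genes. Counts on genes in cluster 7 ranged from 48571 to 1408224 per cell with a median of 311916, against medians of 229006 to 267078 in the other fibroblast clusters, and no 2 cells had identical counts.

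Of the 4 markers, *Col8a1* and *Wnt2* separated cluster 7 from every other fibroblast cluster in every line. *Cd34* had 1544, 1051 and 1285 counts per 500000 in the cluster 7 cells of Acta2GFP, PdgfraGFP and PdgfrbGFP, the order of lines used for all values below. In cluster 5 the level of *Cd34* was 1026 ± 126.3 (SD, n = 4 lines), in cluster 1 it was 595 ± 101.3, and in clusters 6 and 2 it was 30.2 ± 25.6 and 41.3 ± 37.4. The lines of clusters 7 and 5 thus overlapped for *Cd34*, and both stood far above the apical clusters. *Col8a1* reached 355.9, 382.8 and 363.8 in cluster 7 and 156.6 to 246.4 in the lines of cluster 5. *Wnt2* had 90.9, 118.2 and 63.8 in cluster 7, against 3.49 to 21.4 in the lines of cluster 5 and 30.4 ± 19.4 in cluster 1. For both genes no cluster 7 line overlapped any line of the other 4 clusters. *Fzd4* had 53.8, 68.6 and 37.01, values on both sides of the cluster 5 mean (50.1 ± 8.76), and was at 17.7 ± 9.94 or less in clusters 1, 2 and 6. The 5 cells of Cspg4dsRED, which entered no mean, had 1390 counts of *Cd34*, 301.6 of *Col8a1*, 92.5 of *Wnt2* and 9.70 of *Fzd4*.

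**Figure D1:**
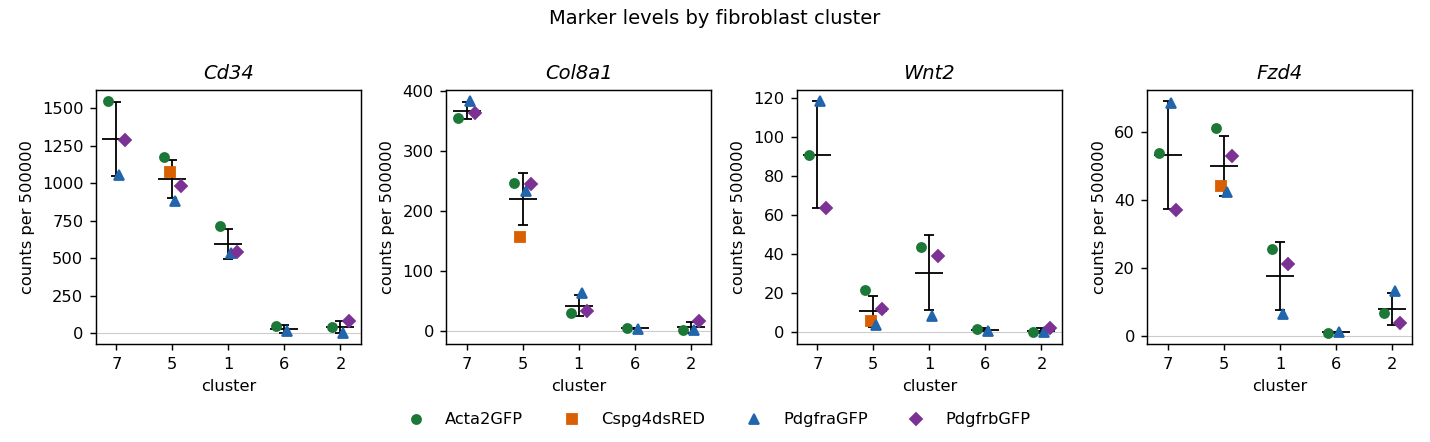
Levels of the 4 marker genes in the fibroblast clusters, ordered from crypt base to apex, in mean counts per 500000 per line. Points are lines with at least 10 cells of the cluster, bars are the mean ± SD over lines. *Col8a1* (355.9 to 382.8) and *Wnt2* (63.8 to 118.2) in cluster 7 lie above every line of the other clusters, while *Cd34* and *Fzd4* overlap with cluster 5.

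The markers were found together in a larger share of cells in cluster 7 than in clusters 5 and 1. After every cell was thinned to 50000 counts, which left out 3 cells, *Cd34* was detected in 100% of 220 cells (95% Clopper-Pearson interval from 98.3%), *Col8a1* in 93.6% (89.6 to 96.5), *Wnt2* in 58.6% (51.8 to 65.2) and *Fzd4* in 47.7% (40.97 to 54.5). Before thinning, the shares of *Wnt2* and *Fzd4* were 76.2% and 69.5%. Intervals cover counting error only. Thinned cells of cluster 5 gave 99.5% for *Cd34*, 83.3% for *Col8a1*, 21.5% for *Wnt2* and 45.99% for *Fzd4*. By detection, *Cd34* and *Fzd4* thus had nearly equal shares in clusters 7 and 5. Mural cells, with a median of 221082 counts, gave 50.3% for *Cd34*, 20.7% for *Col8a1*, 5.39% for *Wnt2* and 23.1% for *Fzd4*. They are a different cell class, but may express some of these genes, so their shares need not be background alone. All 4 markers were detected in 57 of 220 cluster 7 cells, or 25.9% (20.3 to 32.2), against 9.43% of cluster 5, 7.28% of cluster 1 and 0.599% of mural cells. At least 3 of the 4 were detected in 76.8% of cluster 7 and 49.3% of cluster 5. Cells of cluster 7 also differed among themselves. Their *Cd34* level ran from 65.7 to 2836 with a median of 1365, whereas *Wnt2* was at 0 in 23.8% of unthinned cells and had a median of 35.4 and a 90th percentile of 231.9. The 4 markers by which the cluster is named here were thus found in it, which is a description, since clusters and markers come from these cells.

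To describe cluster 7 across all genes, the cells of a cluster in a line were merged by adding their raw counts, and the 3 sums of cluster 7 were compared with the mean of clusters 1, 2, 5 and 6, each of the 4 with equal weight on the log scale (edgeR's quasi-likelihood test, adjusted p under 0.05). The authors drew the clusters from these same counts, so the calls say which differences recurred across lines and are no independent test. Of 18924 genes, 507 (2.68%) were called higher in cluster 7 and 200 (1.06%) lower. DESeq2 on the same sums called 724 higher and 708 lower, and with all other fibroblasts of a line pooled into 1 sum, so that the large clusters 1 and 5 dominated, 0.355% were called higher and 0.703% lower. Without Acta2GFP the shares were 0.504% higher and 0.209% lower, without PdgfraGFP 1.19% and 0.513%, and without PdgfrbGFP 1.34% and 0.412%. The shares of 2.68% and 1.06% stand for all genes beside each count of called list members below. Limma called 4.90% higher and 2.27% lower. Of the called genes that are listed or named here, 81 lost the call without Acta2GFP and 44 kept it, and 70 lost it against pooled fibroblasts. Among the markers, *Col8a1* kept its call against pooled fibroblasts (log2 difference 1.77), and *Cd34* (2.85 against the mean of the clusters, 0.78 against pooled fibroblasts), *Wnt2* (4.34 and 2.01) and *Fzd4* (2.67 and 0.73) did not. The median log2 difference over all genes was 0.05. Mean log2 levels over the same genes correlated at Pearson r = 0.953 with cluster 5, 0.926 with cluster 1, 0.857 with cluster 2 and 0.831 with cluster 6, a description across genes that share libraries.

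Among the called genes that were abundant in cluster 7 and higher in each of its lines, the largest difference was that of *Efhd1*, which encodes a calcium-binding protein of mitochondria (chromosome 1, 87264363 to 87310839). It had 169.3, 156.4 and 185.7 counts per 500000 in cluster 7, 9.02 ± 5.796 in cluster 5 and 1.70 ± 1.36 or less in the other clusters, a log2 difference of 6.65 ± 0.77 (SE) in the fit. *Npy1r*, a receptor for neuropeptide Y, had 180.3, 111.4 and 171.01 counts, against 15.6 ± 15.04 in cluster 5 (log2 difference 5.91 ± 1.04). These 2 genes had the largest gaps to cluster 5 in the set of 10 named by rule, with levels 18.9-fold and 9.87-fold higher. *Npy1r* was detected in 62.7% of thinned cluster 7 cells but also in 47.01% of mural cells, so among colon mesenchymal cells it was not particular to the cluster. *Adamts5*, a protease that cleaves large proteoglycans, had 265.9, 298.8 and 270.4 counts and 38.2 ± 22.4 in cluster 5 (4.55 ± 0.71). *Pi16*, a secreted peptidase inhibitor known from fibroblasts around vessels, had 1238, 602 and 1110 counts (4.59 ± 0.74), and its 331.9 ± 175.7 in cluster 5 stood well above the 35.1 ± 28.8 of cluster 1.

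The other 6 of the 10 were also present in cluster 5 and lower in the middle and apical clusters. They were *Ebf1*, a transcription factor (195.2 ± 9.36 in cluster 7, 133.9 ± 42.8 in cluster 5 and 5.70 ± 3.05 in cluster 1), *Pcolce2*, an enhancer of procollagen processing (390.6 ± 34.7, 244.4 ± 90.5 and 7.96 ± 5.30), *Scara5*, a ferritin receptor (535 ± 97.04, 290.8 ± 75.8 and 36.1 ± 11.5), *Gfpt2*, an enzyme of hexosamine synthesis (647 ± 236.8, 253.6 ± 87.5 and 67.3 ± 14.8), *Emilin2*, an elastic fibre glycoprotein (264.9 ± 50.4, 94.3 ± 26.6 and 13.9 ± 11.8), and *Flrt2*, an adhesion and guidance protein (115.2 ± 25.2, 59.1 ± 24.7 and 7.39 ± 2.43). Their log2 differences lay between 4.33 ± 0.54 and 4.99 ± 0.57. Of these, only *Ebf1* had lines that overlapped with those of cluster 5.

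**Figure D2:**
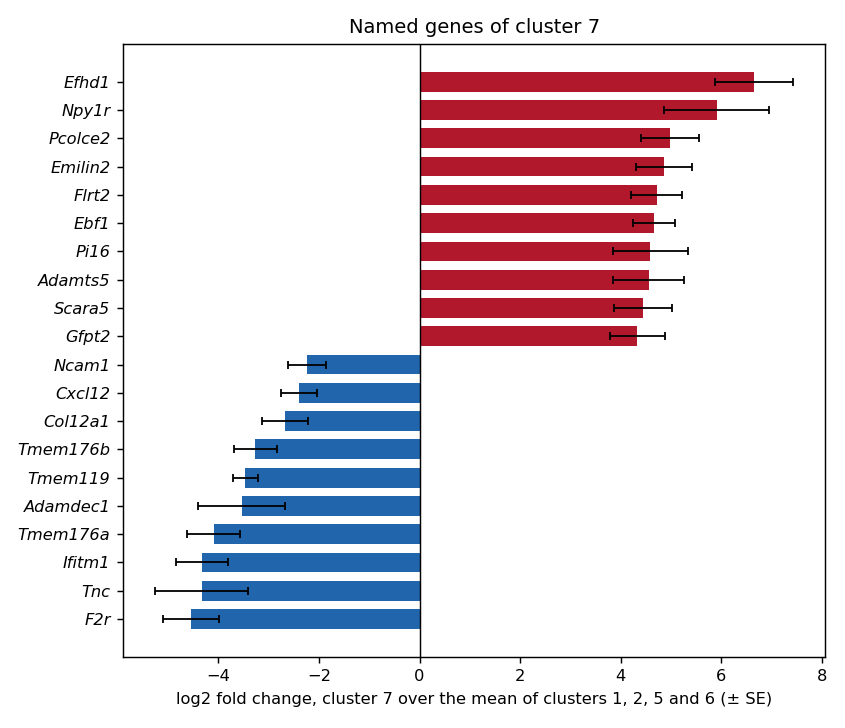
Log2 difference of cluster 7 from the mean of the other 4 fibroblast clusters for the 10 genes of each direction named by rule, with bars of 1 SE from the edgeR fit. *Efhd1* (6.65) and *Npy1r* (5.91) lie farthest to the high side, *F2r* (-4.54) and *Tnc* (-4.33) to the low side.

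The 10 genes named as lower were chosen by the same rule. *F2r*, the thrombin receptor, had 8.03, 19.3 and 9.99 counts per 500000 in cluster 7, 105.8 ± 86.1 in cluster 5 and 733 ± 77.6 in cluster 2 (log2 difference -4.54 ± 0.55). *Tnc*, the matrix protein tenascin C, had 11.8, 6.97 and 32.05, and rose along the crypt to 1972 ± 120.8 in cluster 2 (-4.33 ± 0.93). The lines of clusters 7 and 5 overlapped for *Tnc* but not for *F2r*. *Ifitm1*, an interferon-induced membrane protein of a family with close copies, had 8.43 ± 6.91, against 86.3 ± 16.7 in cluster 5 and 385.02 ± 6.23 in cluster 6 (-4.31 ± 0.52). *Adamdec1*, a protease of gut stroma, had 62.3 ± 54.7 in cluster 7 and 72.2 ± 68.03 in cluster 5 but 2126 ± 208.1 in cluster 1 (-3.53 ± 0.86). *Tmem119*, a membrane protein, had 59.1 ± 17.3, 223.3 ± 45.1 and 617 ± 76.3 in clusters 7, 5 and 1, and 1404 ± 228.4 and 1248 ± 361.8 in clusters 6 and 2 (-3.47 ± 0.25). *Tmem176a* and *Tmem176b*, neighbours whose annotated ends overlap and whose reads could be mixed where counting ignored strand, were at 22.7 ± 18.3 and 58.3 ± 32.1 (-4.09 ± 0.53 and -3.26 ± 0.43). *Col12a1* (29.9 ± 20.2, log2 difference -2.68 ± 0.46), *Cxcl12* (132.5 ± 54.1, -2.39 ± 0.36) and *Ncam1* (36.5 ± 6.61, -2.24 ± 0.38), a collagen, a chemokine and a neural adhesion molecule, completed the set.

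Most genes that mark CD34-positive stromal progenitors were called. Of 13 genes, 11 were called higher in cluster 7 (2.68% of all genes) and none lower, with a median log2 difference of 3.61. Of the 11 calls, 6 were lost against pooled fibroblasts, among them those of *Cd81*, *Ackr4*, *Pi16*, *Dpp4* and *Cd55*, and 4 without Acta2GFP. In 9 of the 13 all lines lay above those of cluster 5, as in 4.07% of all genes. The members, known marker genes of fibroblasts around vessels and surface proteins, do not include *Cd34*, and they were chosen with earlier results of these cells known. *Dpp4*, a surface peptidase, was at 37.01, 33.9 and 41.04, against 5.14 ± 4.93 in cluster 5 and 0.731 ± 0.714 or less elsewhere (6.42 ± 0.96). It was at 0 in 57.4% of cluster 7 cells while its 90th percentile was 140.3, so a minority of cells carried most of it. *Cd248* (endosialin) had 1403 ± 139.2, 1.97-fold its cluster 5 level of 712 ± 222.9, *Cd55*, a complement regulator, had 713 ± 188.8 against 379.8 ± 126.5, and *Sema3c*, a guidance factor, had 528 ± 93.9 against 191.7 ± 68.2. *Cd81* and *Ackr4*, a tetraspanin and a decoy receptor for chemokines reported in CD34-positive cells that support the crypt, behaved differently. Both were high in clusters 7 and 5 alike, with 580.1 ± 58.4 and 577 ± 146.7 for *Cd81* and 229.6 ± 5.42 and 211.8 ± 130.7 for *Ackr4*, and at 67.9 ± 18.8 or less in the other clusters. Their calls against the mean of the 4 clusters (2.70 ± 0.21 and 4.32 ± 0.54) therefore came from clusters 1, 2 and 6. *Ly6a* (715 ± 62.8, and 528 ± 55.2 in cluster 5) and *Eng* (106.03 ± 57.2, and 172.8 ± 65.01) did not pass the test. *Ly6a* and *Ly6c1* (271.7 ± 21.2, called higher) belong to a family of similar copies, between which reads could be split.

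Of 19 WNT ligand genes, 10 were abundant enough to test, 4 were called higher and 2 lower, with a median of 0.03, where 2.68% of all genes were called higher and 1.06% lower. Without Acta2GFP none of the 6 calls held, and against pooled fibroblasts that of *Wnt5a* alone did. Those of *Wnt4*, *Wnt5a* and *Wnt9a* were also lost without PdgfraGFP and without PdgfrbGFP, and those of *Wnt10b* and *Wnt11* without PdgfrbGFP. Beside *Wnt2* (log2 difference 4.34 ± 0.73), *Wnt9a* was called, with 25.2, 29.4 and 26.4 counts per 500000 in cluster 7 and 12.98 ± 9.35 in cluster 5 (3.99 ± 0.92), and so were *Wnt11* (17.4 ± 6.09, and 8.92 ± 9.68) and *Wnt10b* (6.57 ± 5.82, and 0.533 ± 0.559). *Wnt10b* was at 0 in the PdgfraGFP line, and both *Wnt10b* and *Wnt11* were at 0 in the lines of cluster 6, so their fitted differences are not given. *Wnt2b*, a close relative of *Wnt2*, showed no such pattern: it had 18.2, 58.01 and 14.4 in cluster 7, 33.4 ± 29.6 in cluster 5 and its highest mean, 99.1 ± 31.8, in cluster 1. The ligands called lower were *Wnt5a*, the main non-canonical ligand, with 17.04 ± 3.78 in cluster 7 and 452.04 ± 47.5 in cluster 2 (-2.59 ± 0.58), and *Wnt4*, with 0.406 ± 0.245, close to its 0.458 ± 0.384 in cluster 5 and below 19.8 ± 3.85 in cluster 1. The summed level of the ligand list was 167.6 to 242.9 in cluster 7 and 42.4 to 133.3 in cluster 5, ranges that did not overlap. It was 165.9 to 197.2 in cluster 1, which overlapped with cluster 7, and higher in clusters 6 (268.97 to 392.6) and 2 (468.6 to 579.6).

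R-spondins, which bind LGR receptors and raise the response to WNT, were sparse. *Rspo3* had 22.8, 5.43 and 26.8 counts per 500000 in cluster 7 and was called higher against the mean of the other clusters (3.03 ± 0.73), a call that was lost with limma, against pooled fibroblasts and without any 1 of the 3 lines of cluster 7. The level was near that of cluster 5 (18.4 ± 11.4 and 18.5 ± 7.59) and the low values were those of clusters 6 (0.687 ± 0.915) and 2 (0.395 ± 0.505). *Rspo1* was at 0.122 ± 0.107 in cluster 7 and at 15.8 ± 12.8 in cluster 5, where every line (1.97 to 32.9) lay above every line of cluster 7. *Rspo2* had 0.0712 counts in Acta2GFP and 0 in the other lines of cluster 7, and *Rspo4* was at 0. Among 18 receptor genes, 14 were tested and *Fzd4* alone was called (2.67 ± 0.46). *Fzd1* was at 77.2 ± 22.2 in cluster 7, 136.5 ± 38.2 in cluster 5 and 279.4 ± 54.8 in cluster 1, and the lines of cluster 7 lay below those of cluster 5. The secreted inhibitors went both ways. *Sfrp4* was called higher (86.6 ± 46.5, against 35.4 ± 28.9 in cluster 5, log2 difference 4.75 ± 0.67) and *Dkk3* lower (116.4 ± 23.6 against 205.6 ± 42.6, -1.84 ± 0.30), of 8 tested from a list of 12. Against pooled fibroblasts neither call held, and without Acta2GFP that of *Sfrp4* alone did. *Sfrp1*, which was at 556 ± 63.9 in cluster 1, had 79.4, 112.96 and 105.03 in cluster 7 and 142.8 to 346.5 in the lines of cluster 5, without overlap. As it was at 11.1 ± 12.3 and 43.4 ± 19.4 in clusters 6 and 2, it was not called against the mean of all 4.

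**Figure D3:**
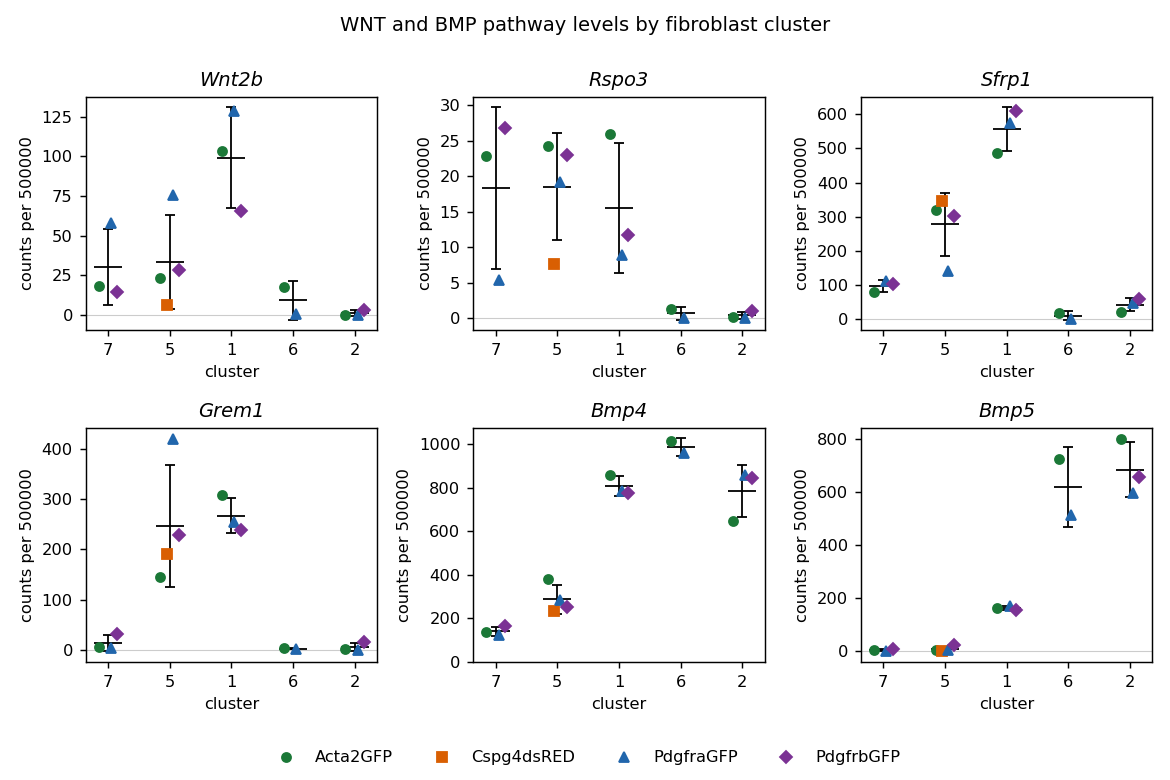
Levels of *Wnt2b*, *Rspo3*, *Sfrp1*, *Grem1*, *Bmp4* and *Bmp5* in the fibroblast clusters from crypt base to apex, in mean counts per 500000 per line, with the mean ± SD over lines. *Bmp4* (122.7 to 164.7) and *Grem1* (3.63 to 31.5) in cluster 7 lie below every line of cluster 5.

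Of 13 ligands of the BMP and GDF family, 12 were tested, none was called higher and 4 were called lower (1.06% of all genes), with a median of -0.92. Without Acta2GFP the call of *Bmp4* held and the other 3 were lost, and against pooled fibroblasts that of *Bmp2* was lost. The call of *Bmp2* was also lost without PdgfraGFP, and those of *Bmp2* and *Bmp7* without PdgfrbGFP. *Bmp4* had 135.6, 122.7 and 164.7 counts per 500000, below every line of the other clusters, which averaged 287.3 ± 64.9 in cluster 5 and 784 ± 119.4 to 988 ± 41.1 in clusters 1, 2 and 6 (-2.13 ± 0.20). *Bmp5* had 4.07, 0.524 and 7.87, and reached 683 ± 104.7 in cluster 2 (-5.02 ± 0.76). *Bmp2* (7.33 ± 2.19, -2.79 ± 0.70) and *Bmp7* (3.41 ± 2.72, -4.07 ± 0.89) were as low as in cluster 5 (11.5 ± 9.14 and 1.62 ± 2.41) and were highest at the apex (456.8 ± 80.6 and 398.1 ± 205.6). The step from cluster 5 to cluster 7 was thus seen in *Bmp4* among these 4, without overlap of lines. *Gdf10*, a BMP3-like ligand, was not called against the mean of the 4 clusters, yet had 14.3, 0.595 and 20.1 in cluster 7 against 200.9 to 361.1 in the lines of cluster 5, 21.5-fold apart in the means.

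Secreted BMP antagonists, which are known from the muscle and stroma around the crypt base, were mostly not called. *Grem1* (gremlin 1) had 5.98, 3.63 and 31.5 counts per 500000 in cluster 7, against 246.5 ± 120.4 in cluster 5 and 267.4 ± 35.6 in cluster 1, and 2.77 ± 1.15 and 6.28 ± 8.61 in clusters 6 and 2. Every line of cluster 7 lay below every line of cluster 5, at a 17.98-fold lower mean, although the fit did not call the gene. In single cells of cluster 7 the median of *Grem1* was 4.00 and the 90th percentile 21.001, with a maximum of 538.9. After thinning, 41.4% of cluster 7 cells had a count of it, against 67.7% of cluster 5, 74.2% of cluster 1 and 16.8% of mural cells. Of the 13 antagonists, 11 were tested, *Fstl1* was called higher (2104, 1096 and 1607, against 911 ± 195.5 in cluster 5, 1.22 ± 0.16) and *Twsg1* lower (83.03 ± 6.80, level with the 85.1 ± 15.4 of cluster 5 and below the 835 ± 171.9 of cluster 2, -1.59 ± 0.28). The call of *Fstl1* was lost against pooled fibroblasts, and that of *Twsg1* without Acta2GFP or without PdgfrbGFP. *Chrd*, chordin, had 58.4 ± 29.2 in cluster 7 and 76.6 ± 38.2 in cluster 5 and was not called.

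None of 8 tested fibrillar collagens was called in either direction, with a median of 0.03. *Col1a1*, *Col1a2* and *Col3a1*, the chains of types I and III, had 2146 ± 142.1, 1764 ± 68.5 and 2631 ± 118.6 counts per 500000 in cluster 7 and 1843 ± 402.6, 1673 ± 329.9 and 2358 ± 401.4 in cluster 5. Of 10 tested network and basement membrane collagens, *Col8a1* was called (4.21 ± 0.59). *Col14a1*, which sits on fibril surfaces, had 1104, 1347 and 1110 in cluster 7, 689 ± 136.5 in cluster 5 and 16.8 ± 23.6 in cluster 2 (3.91 ± 0.51). Among 12 tested fibril-associated and beaded collagens, *Col14a1* and *Col6a3* (690.1 ± 99.5, 0.85 ± 0.19) were called higher, while *Col6a1* (974 ± 63.6, -0.60 ± 0.14), *Col6a2*, *Col6a4* and *Col12a1* were called lower, 2 and 4 calls beside 2.68% and 1.06% of all genes. The call of *Col6a1* was lost with limma, against pooled fibroblasts and without any 1 of the 3 lines of cluster 7. The call of *Col6a2* was lost with the reporter line as a block (adjusted p = 0.0661), with plates, DESeq2, limma or pooled fibroblasts and without any 1 line, and that of *Col6a4* with the block (adjusted p = 0.143) and without Cspg4dsRED, PdgfraGFP or PdgfrbGFP. Of 14 laminin and nidogen genes tested, *Nid1* had 869.9, 834 and 867 in cluster 7 and 348.5 to 618 in cluster 5 (1.51 ± 0.16), *Lamb2* had 239.6 ± 54.2 (2.14 ± 0.39), and *Lamb1* (323.1 ± 111.9) and *Lama5* (1.26 ± 0.883, against 401.3 ± 232.9 at the apex) were called lower. Of these 4 calls, 2 held against pooled fibroblasts and 3 without Acta2GFP.

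Elastic fibre genes, which encode the microfibrils and linkers on which elastin is laid down, held 5 higher calls and 1 lower of 18 tested (2.68% and 1.06% of all genes). Those of *Fbn1*, *Fbln2*, *Mfap5* and *Emilin2* held both without Acta2GFP and against pooled fibroblasts. *Fbn1*, fibrillin 1, had 2080, 1911 and 1542 counts per 500000 in cluster 7 and 284.9 to 933 in the lines of cluster 5 (2.31 ± 0.27), and fell toward the apex to 132.2 ± 58.4. *Mfap5*, a microfibril protein, had 941, 684 and 678, against 298.1 ± 106.8 in cluster 5 (3.68 ± 0.48), and *Fbln2*, fibulin 2, had 1234 ± 146.6 against 769 ± 99.2 (2.68 ± 0.35). Each of these lay above every line of the other clusters. *Emilin2* and *Ltbp4* (1370 ± 393.2, level with the 1284 ± 460.1 of cluster 5) were also called, and *Emilin1* was called lower (95.9 ± 38.05, -1.41 ± 0.30). *Fbln1*, fibulin 1, had 1044, 587 and 1143 in cluster 7 and 1338 to 2437 in cluster 5, without overlap, while *Eln*, elastin itself, had 159.7 ± 73.2 and 190.9 ± 50.7. *Efemp1*, a further fibulin, was at 908 ± 112.4 in cluster 7 and 439.1 ± 51.6 in cluster 5, also without overlap, and was not called against cluster 5 or against the mean.

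Among matricellular proteins (22 tested, 3 higher and 2 lower, against 2.68% and 1.06% of all genes, with 1 of the 5 calls kept without Acta2GFP and 2 against pooled fibroblasts), *Tnxb*, tenascin X, was at 575 ± 183.2 in cluster 7 and 24.4 ± 26.2 in cluster 2, opposite to *Tnc*, and *Ccn3* was at 34.3, 38.2 and 19.002, 6.78-fold above cluster 5. *Fn1*, fibronectin, had 1077, 1705 and 1330 in cluster 7 and 93.3 to 650.3 in the lines of cluster 5, and was not called. Of 10 small leucine-rich proteoglycans, *Aspn* (519.6 ± 100.1) and *Ecm2* (155.7 ± 19.3) were called higher and *Podn* lower (79.6 ± 9.24, against 335.6 ± 167.8 in cluster 5, -1.75 ± 0.35). Without Acta2GFP none of these 3 calls held, and against pooled fibroblasts 1 did. *Dcn*, decorin, had 2434 ± 558 in cluster 7 and 3458 ± 686.5 in cluster 5. Among 27 tested proteases and inhibitors, *Adamts5*, *Timp3* (626 ± 116.5), *Loxl1* (653 ± 79.2), *Adamtsl1* and *Adamtsl3* were called higher and *Mmp2* (648 ± 52.8, -0.77 ± 0.15) and *Adamts9* lower, 5 and 2 calls beside 2.68% and 1.06% of all genes. Of the 7, that of *Adamts5* alone held against pooled fibroblasts, and 4 held without Acta2GFP. *Loxl1*, a lysyl oxidase that cross-links elastin, and *Timp3* lay above the lines of cluster 5, whereas *Adamtsl3* (59.6 ± 6.70, and 74.3 ± 38.6) did not.

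Of 17 tested chemokines, 2 were called higher and 2 lower (2.68% and 1.06% of all genes). Of the 4 calls, that of *Cxcl12* held without Acta2GFP, and all but that of *Ccl11* held against pooled fibroblasts. *Ccl7*, which attracts monocytes, had 98.1, 78.1 and 55.4 counts per 500000 in cluster 7 and 11.9 to 25.04 in the lines of cluster 5 (3.59 ± 0.57), and was at 10.4 ± 0.551 or less elsewhere. Its relative *Ccl2* was at 51.04 ± 21.02 and 9.51 ± 7.46, without overlap, but was not called. *Ccl11*, eotaxin, was as high in clusters 5 and 1 (375.5 ± 103.5 and 385.1 ± 32.8) as in cluster 7 (373.2 ± 56.1), and was called (2.46 ± 0.47) with 9.30 ± 7.38 and 14.7 ± 18.1 in clusters 6 and 2. *Cxcl12*, the CXCR4 ligand, had 163.3, 69.96 and 164.1 in cluster 7, below the 340.6 to 757 of cluster 5, and *Cxcl14* had 1.20 ± 1.35, against 347.5 ± 52.6 in cluster 2. Of 13 tested cytokine genes, *Il33*, an alarmin, was called higher (236.1 ± 44.6, near the 206.1 ± 16.9 of cluster 5, 3.92 ± 0.61), and *Il34* and *Il1r1* (6.14 ± 1.39) lower. Complement genes gave 4 higher calls and none lower of 13 tested (2.68% and 1.06% of all genes), with a median of 0.02, and against pooled fibroblasts none of those reported here held. *C3*, the central complement protein, had 1563, 1196 and 1519, 1655 ± 617 in cluster 5 and 17.2 ± 12.2 in cluster 6 (3.56 ± 0.40).

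Growth factor and guidance genes held calls of which, among those named in this group, *Igfbp6*, *Sema3c*, *Nrp2* and *Ptch1* kept theirs without Acta2GFP. Over all genes, 2.68% were called higher and 1.06% lower. Against pooled fibroblasts, 1 of 4 calls followed in the FGF, HGF, neurotrophin and EGF families held, 3 of 5 in the semaphorin system and 1 of 2 in the TGF-beta group. That of *Igfbp6* and 1 of 3 prostaglandin calls held too, and those of the vascular, hedgehog and retinoid genes did not. Among 17 tested ligands of the FGF, HGF, neurotrophin and EGF families, the genes called higher included *Fgf2* (36.3 ± 8.50) and *Fgf18* (7.00 ± 3.03), and *Hgf* (1.501 ± 1.48, and 66.8 ± 38.7 in cluster 1) and *Ntf3* (1.27 ± 0.171, and 128.7 ± 28.04 in cluster 2) were called lower. *Igfbp6*, a binding protein for IGF2, was the 1 call among 9 tested IGF genes (852, 807 and 743, against 614 ± 111.95 in cluster 5, 2.25 ± 0.25). The vascular factors *Angptl7* (50.3 ± 28.6) and *Angptl1* (16.2 ± 6.36, below the 33.4 ± 27.2 of cluster 5) were called higher among 12. *Tgfbr3*, betaglycan, was called higher (199.9 ± 34.9, and 192.6 ± 25.99 in cluster 5) and *Tgfbi* lower (97.5 ± 37.7, and 1602 ± 418.3 in cluster 2) among 8 genes of the TGF-beta group. In the semaphorin system (13 tested), *Sema3b*, *Sema3c* and *Sema3d* were called higher, and *Sema3f* and the receptor *Nrp2* (13.97 ± 3.83, below every line of the other clusters) lower. In the hedgehog pathway (10 tested), the co-receptor *Gas1* was called higher with 58.001 ± 21.3, although cluster 5 had 181.6 ± 50.9 and the direction turned against pooled fibroblasts (log2 difference -0.24), and the receptor *Ptch1* lower (38.7 ± 9.35, and 248.9 ± 20.5 in cluster 6). None of 5 tested PDGF receptors and ligands was called: *Pdgfra* had 190.1, 235.7 and 187.8 in cluster 7 and 1042 ± 260.9 in cluster 2. *Aldh1a3*, an enzyme of retinoic acid synthesis (68.3 ± 15.99), was called higher and *Rarres2* (250.3 ± 16.3) lower among 11 retinoid genes. Of 13 prostaglandin genes, *Ptges* (52.9 ± 16.3), *Ptger1* and *Ptger2* were called lower (1.06% of all genes) and none higher, and none of the 3 calls held without Acta2GFP. *Ptgs1*, cyclooxygenase 1, had 111.5 ± 33.3 in cluster 7 and 29.03 ± 6.08 in cluster 5, without overlap and without a call, and 617 ± 27.3 at the apex.

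Of 38 tested transcription factors of gut mesenchyme, 10 were called higher and 7 lower (2.68% and 1.06% of all genes), with a median of 0.08. Without Acta2GFP the calls of *Ebf1* and *Klf4* held among those named here. Of 16 of the calls followed against pooled fibroblasts, 7 held and 9 were lost. *Ebf1* varied little over lines, with 205.9, 188.6 and 191.1 counts per 500000 in cluster 7 (4.66 ± 0.42). *Osr2*, an odd-skipped factor, had 95.6, 133.1 and 71.6, above the 10.8 to 62.4 of the cluster 5 lines (3.19 ± 0.66), whereas its relative *Osr1* was higher in cluster 1 (147.7 ± 26.8) than in cluster 7 (101.8 ± 64.5). *Klf4* (118.4 ± 31.3) and *Klf2* (130.3 ± 38.3), Krüppel-like factors that also respond to dissociation, *Foxp2* (50.9 ± 22.5), *Prrx1* (14.1 ± 4.67), *Twist1* and *Ebf3* were also called higher. The factors called lower were *Foxl1*, a marker of subepithelial telocytes (0.503 ± 0.607, and 145.8 ± 30.4 in cluster 2), *Tcf21* (75.7 ± 28.4, and 645 ± 52.1 in cluster 1), *Tcf4* (75.6 ± 12.5), *Lef1*, *Tbx2*, *Sox6* and *Runx2*. Except for *Tcf21* and *Tcf4*, these were at 0.503 or less in cluster 7, and *Runx2* alone of the 7 lay below all lines of cluster 5 as well. Of the 9 apex fibroblast genes that the study named on these same cells, 6 were called lower in cluster 7 (1.06% of all genes) and none higher, of which 1 held without Acta2GFP and 5 against pooled fibroblasts, with a median of -3.12, and their choice on these cells makes this no separate evidence of direction.

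Markers of most other cell types were low in cluster 7. The summed level of 6 mural cell genes was 11.996 to 21.5 in its lines and 33.6 to 141.5 in those of cluster 5, with *Kcnj8* called lower. That call was lost without Acta2GFP. The 14 contractile genes summed to 619 to 750 counts (595 to 785 in cluster 5), and *Acta2*, *Mylk*, *Tpm1* and *Tpm2* were called lower. Of these 4 calls, 0 held against pooled fibroblasts and 1 without Acta2GFP. No endothelial, immune, epithelial, mesothelial or adipocyte gene was called, and 4 of 5 adipocyte genes and 2 of 5 mesothelial genes were at 0 in all lines. The authors had already removed cells with clear endothelial or immune signatures, so low levels of these genes are not independent of that filter. The 9 endothelial genes summed to 10.5 to 62.04, where *Plvap* stood out at 81.4 on plate 075s of PdgfrbGFP and at 5.63 or less on the other 4 plates with at least 10 cells. Immune genes summed to 1.71 to 8.35, epithelial genes to 7.92 to 51.8 and genes of interstitial cells of Cajal to 2.59 to 4.94. *Uchl1*, a neuronal enzyme, was called higher (5.03, 7.84 and 7.40), a call lost against pooled fibroblasts and without Acta2GFP. The glial marker *Sox10* was near 0 (0.0265 ± 0.0459). Mitochondrial genes made up 0.683 to 0.982% of the sums of cluster 7 and 0.724 to 1.15% of those of cluster 5. Within each of Acta2GFP, PdgfraGFP and PdgfrbGFP, cluster 7 had the lowest such share of the fibroblast clusters with at least 10 cells.

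Genes that respond to tissue dissociation moved with plate and with cluster. Their summed level was 3555 to 4964 in the lines of cluster 7 and 5526 to 7402 in those of cluster 5. It was 1778 to 4316 in cluster 1, 1115 to 2095 in cluster 6 and 11920 to 18647 in cluster 2. The mean of log2(count per 500000 + 1) over 16 such genes was 3.98, 5.91, 4.90, 5.11 and 7.73 in the cluster 7 cells of the first and second plate of Acta2GFP (in the order of their numbers in the labels), the PdgfraGFP plate that held 11 members, and plates 073s and 075s of PdgfrbGFP. *Fos*, an immediate early gene, had 1232 counts on plate 075s and 311.97 to 656 on the others. On each plate the score was lower in cluster 7 than in cluster 5, where it was 4.55, 6.69, 5.57, 5.39 and 8.23. None of the 16 was called in either direction. The mean of the other clusters includes clusters 6 and 2, which lay on opposite sides of cluster 7 in the summed level. In 4 of the 16 genes every line of cluster 7 lay below every line of cluster 5, as in 3.73% of all genes. Leaving out plate 075s called 2.86% of genes higher and 1.13% lower against the mean of the other clusters, so the counts above did not rest on it.

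Cluster 5 is the neighbour of cluster 7 on the crypt axis, and few genes passed the test against it. Of 18924 genes, 0 (0.0%) were called higher in cluster 7 and 7 (0.037%) lower in the edgeR fit. At an unadjusted p under 0.05 there were 1189, of which 814 were lower. DESeq2 called 32 higher and, of its genes given an adjusted p, 1.22% lower. Limma called 30 higher and 9 lower, and with the reporter line as a block there were 3 higher and 3 lower. Leaving out any 1 of the 4 lines left 0 or 1 calls, and the 1 was left without Cspg4dsRED. By rule, *Tmem119* (log2 difference -1.82 ± 0.24 from cluster 5) and *Crispld2*, a secreted protein, are named: *Crispld2* had 152.5, 159.2 and 233.6 counts per 500000 in cluster 7 and 467.9 to 741 in cluster 5 (-1.56 ± 0.26). *F2r* (-3.43 ± 0.54) and *Ifitm1* (-3.20 ± 0.51) were also among the 7. The remaining 3, *Gucy1a1*, *Ctsc* and *Gpm6b*, are named after their values were seen.

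Where lines were compared without a model, 771 genes (4.07%) had every line of cluster 7 above every line of cluster 5 and 706 (3.73%) had every line below. Above all lines of all 4 other clusters were 1.16% of genes, and below them 98 genes (0.518%). Among list genes, separation from the lines of cluster 5 was found upward in *Wnt2* (8.57-fold in the means), *Adamts5* (7.29-fold), *Dpp4* (7.25-fold), *Ccl7* (4.07-fold), *Pi16* (2.96-fold) and *Fbn1* (2.63-fold), and downward in *Gdf10* (21.5-fold), *Grem1* (17.98-fold), *Podn* (4.22-fold), *Cxcl12* (3.49-fold), *Sfrp1* (2.80-fold) and *Bmp4* (2.04-fold). These genes are named because their lines did not overlap, and the fit against cluster 5 called none of them.

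**Figure D4:**
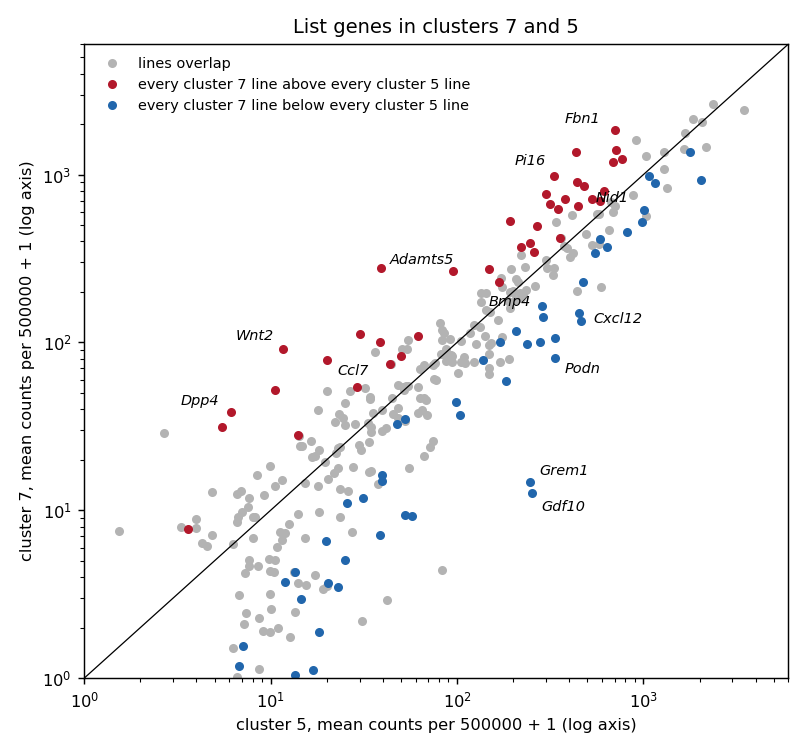
Mean level over lines in cluster 7 against that in cluster 5, both as counts per 500000 + 1 on log axes, for 320 list genes with a level of at least 5 in either cluster. Red points (39) have every cluster 7 line above every cluster 5 line, blue points (48) every line below, and the diagonal marks equal levels.

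RNA content was compared between clusters 7 and 5 as the ratio of counts on genes to counts on spike-in molecules. The clusters were drawn from the same gene counts, so the comparison is not fully independent of them. A fixed amount of ERCC RNA was added per well, so counts on genes over counts on ERCC measure the RNA of a cell. The difference of the medians of log2(gene counts / ERCC counts) was 0.303 on plate 075s, 0.324 on 073s, 0.388 on the PdgfraGFP plate with 11 members, and 0.422 and 0.337 on the plates of Acta2GFP, a mean of 0.355 ± 0.0488 (SD, n = 5 plates) or 1.28-fold. It was above 0 on 5 of 5 plates, and the exact two-sided sign-flip permutation test gave p = 0.0625, the smallest that 5 plates allow. With at least 3 cells of both clusters per plate, 9 plates gave 0.310 ± 0.381 and p = 0.0273 by the same exact test, and 7 of the 9 were above 0. Plates of a line may share a mouse, and the test takes them as independent. After thinning to equal counts, cluster 7 cells had a median of 4078 genes and cluster 5 cells 3915.5. Levels per 500000 counts are shares of a cell's RNA, and a difference in RNA content is not part of them.

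Cluster 7 was not recovered at an equal rate from all lines. It made up 26.3% of the fibroblasts of Acta2GFP (95% Clopper-Pearson interval 22.4 to 30.5), 17.9% of Cspg4dsRED (6.06 to 36.9), 13.3% of PdgfrbGFP (10.6 to 16.4) and 6.67% of PdgfraGFP (3.78 to 10.8). Within Acta2GFP the plates gave 18.4% and 32.1%, and within PdgfrbGFP 11.2 to 16.7%. The dissociation differed for Acta2GFP and the sort could use different markers, and their part in these shares was not tested. Of the reporter genes, *Acta2* had 90.96, 11.03 and 30.6 counts per 500000 in the cluster 7 cells of Acta2GFP, PdgfraGFP and PdgfrbGFP, and *Pdgfrb* had 70.9, 61.7 and 163.3, while *Pdgfra* (190.1, 235.7 and 187.8) varied less.

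**Figure D5:**
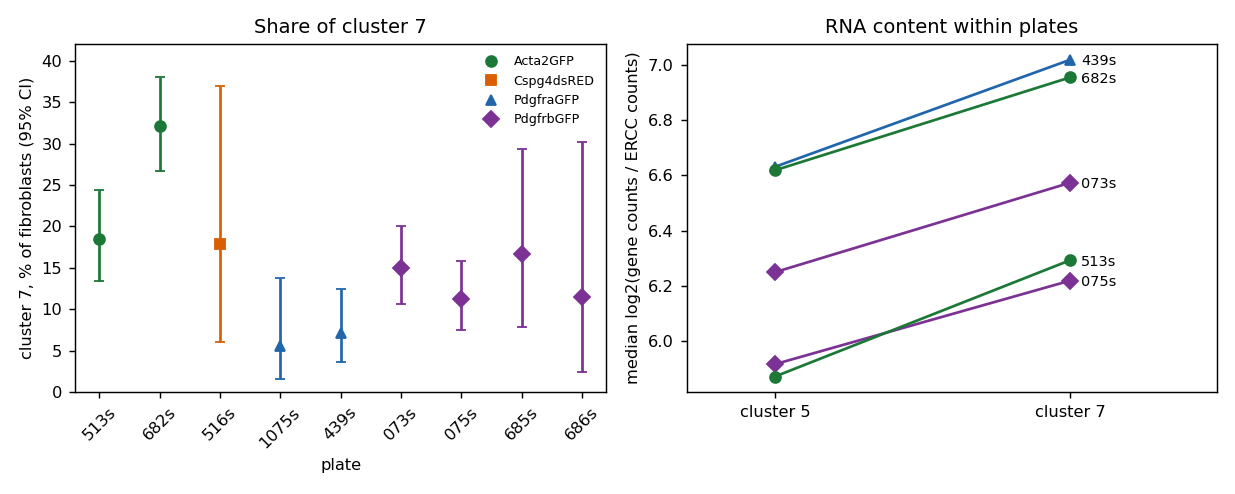
Left, percent of fibroblasts in cluster 7 on each plate, with 95% Clopper-Pearson intervals, and right, median log2(gene counts / ERCC counts) per plate in clusters 5 and 7, joined within a plate. The share runs from 5.63% to 32.1%, and the ratio is higher in cluster 7 on all 5 plates with at least 10 cells of both clusters.

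Within cluster 7, cells of Acta2GFP and PdgfrbGFP were compared over 2 plates each. Of 13815 genes, 0 (0.0%) were called by edgeR in either direction, with 726 at an unadjusted p under 0.05, and DESeq2 called 55 higher and 41 lower in Acta2GFP. *Eng*, endoglin, a member of the progenitor list, had 33.6 and 42.8 counts per 500000 on the Acta2GFP plates and 146.04 and 134.9 on the PdgfrbGFP plates (log2 difference -1.77 ± 0.33, not called). Whether the difference of cluster 7 from cluster 5 depended on the line was tested as an interaction on the same plates. Of 16678 genes, 0 (0.0%) were called by edgeR, with 660 at an unadjusted p under 0.05, and 28 and 11 by DESeq2. Plates of a line may share a mouse, and with so few plates this leaves differences between lines undetected rather than absent.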

How the data were processed

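The authors trimmed single reads of 50 bases, mapped them to GRCm38 with TopHat2, removed what the methods call doublets with samtools, counted reads per gene with featureCounts (strand not stated), and deposited raw counts for 46517 genes and 92 ERCC RNAs in 1646 cells. The sources used here name no molecular identifiers. ERCC rows held 1.36% of counts and entered neither library sizes nor tests, no cell was removed, and no doublet caller was run. Cell types were the authors' deposited clusters, which were not rebuilt.

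Counts were summed per cluster and line with at least 10 cells (15 sums of 2202988 to 85478239 counts; 3 of cluster 7), scaled with TMM, filtered with filterByExpr and fitted with edgeR 4.0.16 in R 4.3.3, with Benjamini-Hochberg adjustment over all genes tested and a threshold of 0.05. The monocle test of the study took cells as replicates and was not used. Plate sums served the comparison of lines. Standard errors are the log2 fold change over the square root of F. Genes were named by rule if called, changed by 1 or more on the log2 scale and in 1 direction in each line, and present at 100 or more counts in 30% or more of the cells on the higher side, and of these the 10 largest changes per direction were taken. Cluster members, gene lists and rules were chosen with earlier results of these data known. Some list members are not reported here by name. Each fit was tested on simulated data. Alternatives were DESeq2 1.42.0, limma 3.58.1, no filter, no TMM, the line as block, other cell minimums, plates, pooled comparators and each line or plate left out. Gene positions came from GENCODE vM21 (1-based), promoters from RefSeq.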

Additional observations from a re-analysis of the deposited data

Results flagged for a closer look

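Of 73 groups of 4 to 10 lines or plates that were examined, 8 held a value set apart from the rest by Dixon's criterion at the 95% level, where chance alone sets apart about 1 in 20 groups. One plate of Acta2GFP had the highest share of cluster 7 among fibroblasts, 32.1%, and the next, the other plate of Acta2GFP, 18.4%. In cluster 7, *Foxl1* was at 2.47 counts per 500000 on plate 075s of PdgfrbGFP, the plate with the highest dissociation score, and at 0.610 or less on the other 4 plates. On the plate of PdgfraGFP that held 11 cluster 7 cells, *Fzd1* was at 132.2 and *Npy1r* at 121.3, the highest and the lowest value of the 5 plates. In cluster 5, the 13 cells of Cspg4dsRED had the lowest levels of *Col8a1* (156.6), *Flrt2* (22.2) and *Pcolce2* (110.2) and the highest of *Cxcl12* (757). These cells belong to the 4 lines that cluster 7 was set against, so the gaps in these 4 genes are measured with a wider comparator than in the other 3 lines alone.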

How the results depend on the processing

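Of the reported genes, named or listed, that were called against the mean of the other clusters, 1309 of 1614 values under the alternatives kept direction and call, 2 turned, and the rest kept direction and lost the call, among them 81 genes without Acta2GFP and 70 with pooled fibroblasts. The 2 that turned were found with all other fibroblasts pooled, where *Ccn2* was at -0.54 and *Gas1* at -0.24 (log2). The 4 called against cluster 5 kept both in 26 values, lost the call in 26 and turned in 0. Against the mean of the other clusters, the share of genes called higher (2.68%) became 4.997% with plates in place of lines, 4.55% with DESeq2 (of genes given an adjusted p), 4.90% with limma, 0.355% with pooled fibroblasts and 0.504 to 2.99% with a line left out. The share called lower (1.06%) became 4.45% with DESeq2 (of genes given an adjusted p), 2.27% with limma, 1.67% with plates, 0.691% without the filter, 0.703% with pooled fibroblasts and 0.209 to 1.32% with a line left out. The median of all genes moved from 0.05 to -0.07 with DESeq2, 0.21 with limma and 0.35 without PdgfraGFP. Against cluster 5, higher calls (0) became 1 without the filter, 2 with at least 3 cells per sum, 10 with plates, 32 with DESeq2 and 30 with limma. The share called lower (0.037%) became 0.135% with plates, 0.0869% with limma, 1.22% with DESeq2 (of genes given an adjusted p), 0.00632% with sums of clusters 7 and 5 only, and 0 to 0.00534% with a line left out. Acta2GFP against PdgfrbGFP in cluster 7 (0 and 0) gave 12 and 24 without the filter, 55 and 41 with DESeq2, and 0 to 1 and 0 to 5 with a plate left out. The interaction (0 and 0) gave 5 and 1 without the filter and 28 and 11 with DESeq2. RNA content was 0.310 with at least 3 cells per plate, now past the threshold, and 0.338 to 0.368 with a plate left out, where 4 plates cannot reach it. Detection at 5 counts in place of 1 was 84.5% for *Col8a1*, 46.8% for *Wnt2* and 26.4% for *Fzd4*, and without thinning 76.2% for *Wnt2* and 69.5% for *Fzd4*. The causes of these changes were not tested. The alternative without plate 075s was chosen after seeing the data.

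With the reporter line as a replicate block, 2.74% of genes were called higher and 1.501% lower against the mean of the other clusters, and against cluster 5 there were 3 higher calls and 0.0159% were lower. Sums of clusters 7 and 5 from the same line correlated in their deviations from the cluster means at r = 0.170 (Acta2GFP), 0.0676 (PdgfraGFP) and 0.198 (PdgfrbGFP). Since 1 of 3 was under 0.1, and PdgfraGFP of cluster 7 correlated best with Cspg4dsRED of cluster 5 (0.110), the lines were not taken as pairs. Depth limits genes near 1 count per 500000, and 15 cells of PdgfraGFP make its sum the shallowest of the 3 of cluster 7.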
